A study of Homo sapiens with 9 samples.

Results

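The genes described here are 10 tissue markers used to tell an ovarian from a gastrointestinal carcinoma. They were followed in OVCAR5 cells, which the study describes as human ovarian cancer (OC) cells. The markers comprised 6 ovarian markers (MUC16, MUC1, WFDC2, MSLN, FOLR1 and PAX8) and 4 gastrointestinal markers (VIL1, CDH17, LGALS4 and KRT20). The list was given by symbol, and all 10 were found among the 60649 gene identifiers of the count table. RNA-sequencing covered 9 libraries of lentivirus-transduced, puromycin-selected cells, 3 labelled NC, 3 labelled SM2 and 3 labelled SM4. NC was given as the control, described as parental in the labels and as a control hairpin in the methods of the study. SM2 and SM4 were given as METTL3 knockdown (KD) lines, METTL3 being the catalytic subunit of the m6A methyltransferase. Whether a line is a clone or a pool is not given in the sources used here. Nothing in the sources says that its 3 libraries came from separate cultures, so p-values measure the spread between libraries, which may be technical.

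Libraries held 44103272 to 63693728 counts. METTL3 itself did not follow the labels: it stood at 35.8 ± 1.19 CPM in NC, 39.0 ± 1.64 in SM2 and 60.2 ± 2.48 in SM4 (SD, n = 3; CPM are library-scaled counts), with a log2 fold change (log2FC) against NC of 0.12 and 0.75 (adjusted p = 0.12 and 2.21e-09, edgeR). It overlaps exons of TOX4 on the other strand, and how strand was used in counting is not stated. TOX4 stood at 104.62 ± 2.66 CPM in NC, 100.25 ± 2.338 in SM2 and 99.8 ± 2.95 in SM4. It was not called in SM2 or SM4 against NC (adjusted p = 0.367 and 0.319, edgeR). The part of TOX4 reads in the METTL3 values was not tested. METTL3 was thus highest in libraries labelled as knockdown, so that labels may be exchanged. Against SM4 as the reference, METTL3 was lower, at -0.75 in NC and -0.63 in SM2 (adjusted p = 2.21e-09 and 7.46e-08, edgeR). That is the order of a control labelled SM4 and knockdowns labelled NC and SM2. Whether labels were exchanged was not tested. Groups are called by their labels throughout, higher and lower are stated between labels only, and no direction is to be read as an effect of METTL3 KD. For the libraries labelled SM4, the source field carries OVCAR names other than OVCAR5, whereas the cell line field reads OVCAR5. SM2 replicate 3 stood apart from its replicates, with a chi-square per degree of freedom of 16 and 13.4 against 4.14 to 6 in the other 7 replicate pairs. Where leaving it out changed the call of a member, the value without it is given. For other named genes such values are given for only part of the changed calls. The epithelial markers EPCAM, CDH1, KRT8, KRT18, KRT19 and ESRP1 all had group means above 10 CPM, with a sum of 10110 to 11980 CPM per library. Defining markers of leukocytes (PTPRC, CD3E, TYROBP) and the fibroblast markers COL1A2, COL3A1, PDGFRB, DCN and LUM had group means of at most 0.284 CPM. COL1A1, another fibroblast marker, was at 23.01 CPM in NC, and endothelial markers summed to at most 1.48 CPM in any library.

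Ovarian carcinomas of the common serous kind carry the Müllerian transcription factor PAX8 and shed the mucin MUC16 (the CA125 antigen) and the secreted protease inhibitor WFDC2 (HE4), both of which are measured in blood in the clinic. Mesothelin (MSLN) is a surface protein that binds MUC16, and FOLR1 is a folate receptor and drug target. Intestinal and colorectal epithelium is recognised by the keratin KRT20, the microvillus protein villin (VIL1), the cadherin CDH17 and the galectin LGALS4, under transcription factors such as CDX2. Primary ovarian and metastatic gastrointestinal tumours are told apart with such panels because no single marker is specific. MUC1, for example, is made by many glandular epithelia, and MSLN also marks mesothelium.

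The set of RefSeq (GRCh38) promoter entries used here covered 6 of the 10 genes, MUC16, MUC1, WFDC2, PAX8, LGALS4 and KRT20. The 250 bases before the start are shown for 5 of them, since they span the most and the least abundant markers: WFDC2, KRT20 and MUC1 at the top, LGALS4 at the bottom, and MUC16 as the gene that differed most between SM2 and SM4. Capitals mark matches, on either strand, to a TATA box, spelled TATAAA. They also mark the CCAAT box, spelled by its name, and the GC box, for which the letters GGGCGG were searched on both strands.
WFDC2, chr20:45469503-45469752, plus strand: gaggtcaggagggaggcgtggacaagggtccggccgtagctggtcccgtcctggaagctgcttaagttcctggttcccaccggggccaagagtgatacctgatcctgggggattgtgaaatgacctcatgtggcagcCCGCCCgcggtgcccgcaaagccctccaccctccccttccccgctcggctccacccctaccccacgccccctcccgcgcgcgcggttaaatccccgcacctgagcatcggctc
KRT20, chr17:40885243-40885492, minus strand: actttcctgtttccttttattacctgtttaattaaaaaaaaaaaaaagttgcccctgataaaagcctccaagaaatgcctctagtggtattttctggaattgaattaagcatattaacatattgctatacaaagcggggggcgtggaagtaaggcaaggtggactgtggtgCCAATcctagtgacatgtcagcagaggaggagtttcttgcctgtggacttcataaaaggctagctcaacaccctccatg
MUC1, chr1:155192916-155193165, minus strand: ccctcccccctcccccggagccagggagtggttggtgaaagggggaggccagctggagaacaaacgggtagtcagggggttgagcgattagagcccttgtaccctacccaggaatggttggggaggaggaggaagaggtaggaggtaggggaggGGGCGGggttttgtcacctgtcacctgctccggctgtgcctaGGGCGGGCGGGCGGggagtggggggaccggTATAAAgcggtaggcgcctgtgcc
MUC16, chr19:9010410-9010659, minus strand: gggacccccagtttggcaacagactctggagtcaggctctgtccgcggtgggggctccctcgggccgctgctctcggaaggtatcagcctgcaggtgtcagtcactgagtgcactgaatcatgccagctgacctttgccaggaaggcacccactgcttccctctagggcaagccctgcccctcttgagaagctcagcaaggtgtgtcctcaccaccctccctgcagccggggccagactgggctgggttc
LGALS4, chr19:38812946-38813195, minus strand: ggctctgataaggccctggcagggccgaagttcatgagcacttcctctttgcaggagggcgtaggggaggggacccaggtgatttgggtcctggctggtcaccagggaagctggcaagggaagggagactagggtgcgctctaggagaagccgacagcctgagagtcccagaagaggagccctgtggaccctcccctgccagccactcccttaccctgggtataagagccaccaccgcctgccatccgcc
MUC1 had 4 GC boxes, 3 of which overlap in a run, and a TATA box whose first base lay at -24. WFDC2 had 1 GC box and KRT20 had 1 CCAAT box at -79. Over 35116 promoter entries, 42.6% held a GC box, 32.0% a CCAAT box and 10.7% a TATA box in the same window. MUC16 and LGALS4 held none of these. A CDX-type motif (TTTATNG, found in 8.93% of entries, and able to overlap the reverse complement of TATAAA) and an HNF4-type motif (CAAAGTCCA, 0.325% of entries) matched in none of the 6 windows. KRT20 also stood out by base composition, with 41.2% G and C against 61.6% to 67.2% in the other 5 windows and a median of 58.0% over all entries. These are matches of letters and say nothing of binding.

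The first question was which of these markers OVCAR5 cells made. Per length of exon, the order did not follow the tissue. In the libraries labelled NC, WFDC2 was highest at 222.5 ± 10.2 CPM per kilobase (SD, n = 3), rank 85 of 19942 protein-coding genes. KRT20 was next at 109.3 ± 3.13 (rank 257), followed by MUC1 at 64.1 ± 3.94 (rank 586). A gap of several fold separated these from MSLN at 7.67 ± 0.269, FOLR1 at 3.19 ± 0.647 and PAX8 at 1.12 ± 0.0418 CPM per kilobase. VIL1 stood at 0.270 ± 0.0564, MUC16 at 0.190 ± 0.0273, CDH17 at 0.0779 ± 0.0346 and LGALS4 at 0.0391 ± 0.0239 CPM per kilobase. Thus, of the 4 gastrointestinal members, KRT20 stood between both leading ovarian members. The other 3 lay below the middle of all protein-coding genes. The ovarian markers were divided too, but most lay above that middle. WFDC2, MUC1, MSLN and FOLR1 were above 99.6%, 97.1%, 72.9% and 59.3% of protein-coding genes. PAX8 was above 48.9% and MUC16 above only 38.7%. Among neighbours in this order, libraries overlapped between VIL1 and MUC16 and between CDH17 and LGALS4 in NC, and in SM2 the first of these pairs changed places. With the longest transcript in place of all exons, the order of the 10 genes in each group was the same. Levels moved, for PAX8 in NC from 1.12 to 1.995 CPM per kilobase.

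**Figure D1:**
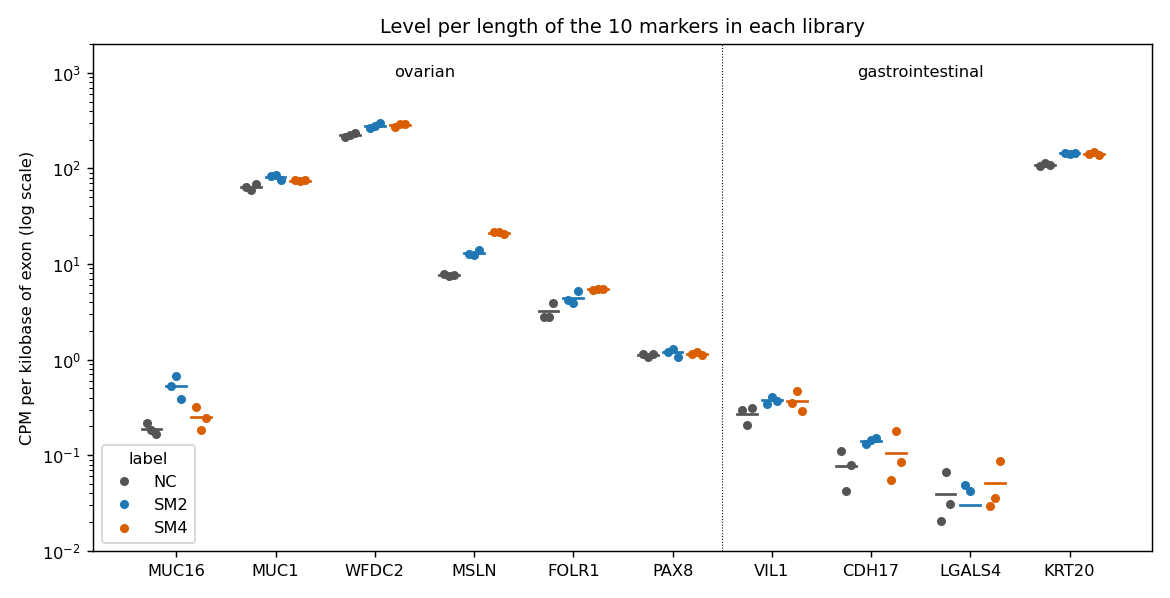
Level per length of the 10 markers, in CPM per kilobase of exon on a log scale, with 1 point per library and a line at each group mean. WFDC2, KRT20 and MUC1 lay above 60 in every group while LGALS4, CDH17, VIL1 and the ovarian marker MUC16 lay below 1. The LGALS4 library with 0 counts (SM2 replicate 2) has no point.

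The comparison of SM2 with NC asked whether these markers changed in the cells labelled as METTL3 KD. Of the 9 members that passed the filter on low counts, 6 were higher in the libraries labelled SM2 than in those labelled NC (MUC16, MUC1, WFDC2, MSLN, FOLR1 and KRT20) and 0 were lower. Over all 19674 genes tested, 22.3% were called, 12% higher and 10.3% lower. The median log2FC was 0.40 for the 6 ovarian and 0.47 for the 3 tested gastrointestinal members, against -0.0037 over all genes. In SM4 against NC, 5 of the 9 were higher (the same genes without MUC16) and 0 lower, where 21.2% of all genes were called and 11% were called higher. The medians were 0.375 and 0.46, against -0.0011 over all genes. Both comparisons use the same NC libraries and so are not independent of each other. SM4 against SM2 called 2 of the 9 members, MSLN higher and MUC16 lower, where 12.8% of all genes were called, 6.04% higher and 6.76% lower. Read with SM4, the group with the most METTL3, as the reference, the same fits gave 0 members higher and 5 lower in NC, and 1 higher (MUC16) and 1 lower (MSLN) in SM2. In bulk RNA, more cells making a transcript cannot be told apart from more transcript per cell.

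**Figure D2:**
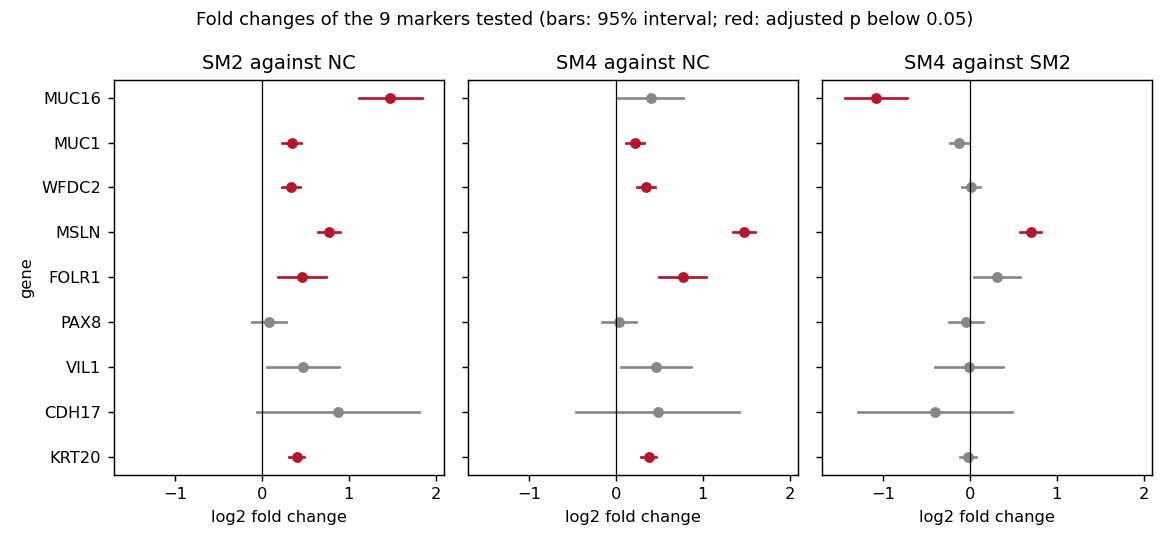
Log2 fold changes of the 9 members tested, 1 panel per comparison, as points with 95% intervals that are not adjusted for the number of genes and with red for an adjusted p below 0.05. Red points lie right of 0 in both comparisons with NC, and in SM4 against SM2 MUC16 lies left and MSLN right of 0.

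Among the surface and secreted ovarian antigens, MSLN was lowest in NC and highest in SM4. MSLN (ENSG00000102854.16, chromosome 16, 760734 to 768865, GRCh38) was at 20.6, 19.2 and 19.8 CPM in NC, 33.3, 32.0 and 36.6 CPM in SM2, and 55.5, 56.1 and 53.8 CPM in SM4. The 3 groups did not overlap at any point, and SM4 was highest. MSLN was 1.72-fold higher in SM2 (log2FC 0.78, SE 0.0606, adjusted p = 9.13e-09) and 2.78-fold higher in SM4 (1.48, SE 0.0596, adjusted p = 3.23e-13) than in NC, by edgeR. SM4 was above SM2 by 0.70 (SE 0.0575, adjusted p = 4.1e-08). Against SM4 as the reference, MSLN was lower, at -1.48 in NC and -0.70 in SM2. Libraries failed to overlap upward in 18% of all genes in SM2 and 19.1% in SM4 against NC.

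MUC16 (ENSG00000181143.15, chromosome 19, 8848844 to 9010390), the mucin to which mesothelin binds, did not share that order. Its values were 9.70, 8.18 and 7.31 CPM in NC, 23.2, 29.9 and 17.0 CPM in SM2, and 14.1, 8.18 and 10.9 CPM in SM4. All 3 SM2 libraries were above every other library, and SM4 overlapped with NC. Over all genes, SM4 lay below SM2 without overlap in 14.6%, and above it in 13.7%. In SM2 MUC16 was 2.79-fold higher than in NC (log2FC 1.48, SE 0.175, adjusted p = 2.52e-06, edgeR). For SM4 the value was 0.40 (95% interval 0.028 to 0.77, adjusted p = 0.126). SM4 was lower than SM2 by a log2FC of -1.08 (SE 0.169, adjusted p = 0.000135). The SM4 call depended on the fit: it was made without a filter on low counts (adjusted p = 0.000166), with only the 6 libraries compared (0.0269), without SM2 replicate 3 (0.0188) and without SM4 replicate 2 (log2FC 0.58, adjusted p = 0.0287). Spread over a long transcript of 44165 exonic bases, these counts made MUC16 one of the less abundant markers per length in every group, at 0.529 ± 0.146 CPM per kilobase in SM2.

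WFDC2 (ENSG00000101443.18, chromosome 20, 45469753 to 45481532) was higher in SM2 and in SM4 than in NC, by similar amounts. It stood at 284, 296 and 311 CPM in NC, at 353, 367 and 401 CPM in SM2, and at 362, 388 and 385 CPM in SM4. Every SM2 and SM4 library was above every NC library, and SM2 and SM4 overlapped. The log2FCs were 0.33 (SE 0.0496, adjusted p = 4.46e-05) and 0.35 (SE 0.0496, adjusted p = 2.35e-05, edgeR), and the difference between SM4 and SM2 lay between -0.087 and 0.12 (95% interval).

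MUC1 (ENSG00000185499.16, chromosome 1, 155185824 to 155192916), a transmembrane mucin, stood at 155, 144 and 163 CPM in NC, 200.4, 203 and 182 CPM in SM2, and 181, 176 and 181 CPM in SM4. No library of SM2 or SM4 lay within the NC range. MUC1 was higher than in NC by a log2FC of 0.34 in SM2 (SE 0.0509) and 0.22 in SM4 (SE 0.0508), with edgeR adjusted p-values of 4.12e-05 and 0.00315. Between SM4 and SM2 the log2FC was -0.12 (adjusted p = 0.126), and without SM2 replicate 3 it was called at -0.17 (adjusted p = 0.00712). A second gene model that shares exons with MUC1 (ENSG00000273088) was listed at 0 counts in all libraries, so how shared reads were assigned is open for MUC1.

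FOLR1 (ENSG00000110195.14, chromosome 11, 72189558 to 72196323) was scarcer and less even. Values were 4.49, 4.52 and 6.30 CPM in NC, 6.65, 6.22 and 8.28 CPM in SM2, and 8.55, 8.86 and 8.84 CPM in SM4. SM4 was above both other groups, while 1 SM2 library lay just within the NC range. FOLR1 was higher than in NC by a log2FC of 0.77 in SM4 (SE 0.129) and 0.46 in SM2 (SE 0.132), with edgeR adjusted p-values of 0.000158 and 0.0149. The SM2 call was lost without NC replicate 1 (0.38, adjusted p = 0.0801), NC replicate 2 (0.38, adjusted p = 0.092) or SM2 replicate 3 (0.33, adjusted p = 0.0737). SM4 against SM2 gave 0.31 (adjusted p = 0.124), and a call at 0.44 without SM2 replicate 3 (adjusted p = 0.0181).

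The lineage factor of the set behaved otherwise. PAX8 (ENSG00000125618.18, chromosome 2, 113215997 to 113278921) was at 8.46, 7.93 and 8.46 CPM in NC, 8.87, 9.57 and 7.90 CPM in SM2, and 8.45, 8.92 and 8.17 CPM in SM4. All 3 groups overlapped. The log2FCs were 0.083 in SM2 (95% interval -0.11 to 0.28, adjusted p = 0.598) and 0.042 in SM4 (-0.15 to 0.24, adjusted p = 0.816, edgeR). Part of these counts may belong to PAX8-AS1, a long non-coding RNA on the other strand with overlapping exons and a higher level (70.0 ± 1.84 CPM in NC), because the use of strand in counting is not stated.

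**Figure D3:**
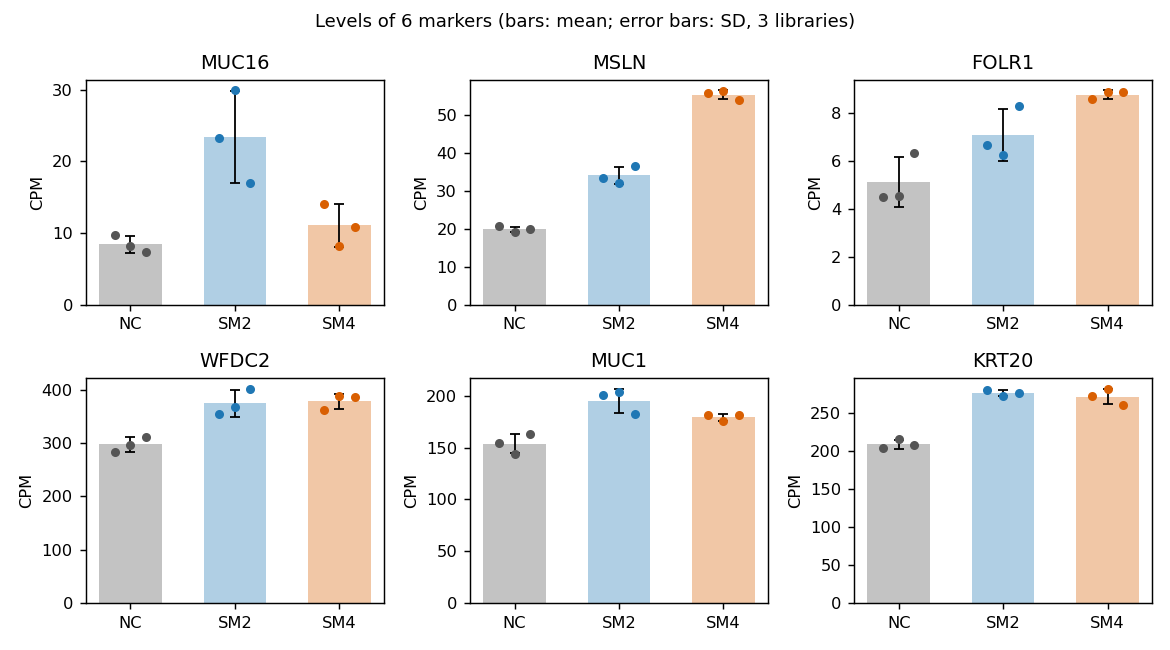
CPM of the 6 members that were called in at least 1 comparison with NC, by label, with points for libraries, bars for means and error bars for the SD over 3 libraries. SM2 is highest for MUC16, SM4 is highest for MSLN and FOLR1, and for WFDC2, MUC1 and KRT20 both SM2 and SM4 lie above NC.

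Of the gastrointestinal markers, KRT20 (ENSG00000171431.4, chromosome 17, 40875889 to 40885242), the keratin of intestinal surface cells, was abundant, and lower in NC than in SM2 or SM4. It stood at 204, 216 and 208 CPM in NC, 280.3, 273 and 276 CPM in SM2, and 272, 282 and 261 CPM in SM4. NC lay below every other library, and SM2 and SM4 overlapped. The log2FCs were 0.40 (SE 0.0421, adjusted p = 5.61e-07) and 0.38 (SE 0.0421, adjusted p = 1.03e-06, edgeR), and SM4 differed from SM2 by -0.023 (95% interval -0.11 to 0.064). The simple-epithelial keratins were also higher than in NC, KRT8 by 0.28 and 0.19 and KRT19 by 0.19 and 0.30 on the log2 scale in SM2 and SM4 (adjusted p of at most 0.00143).

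The other gastrointestinal members were scarce, VIL1 with 77 to 205 counts per library and CDH17 and LGALS4 with fewer. VIL1 (ENSG00000127831.11, chromosome 2, 218419121 to 218453295) was at 2.03, 1.42 and 2.14 CPM in NC, 2.39, 2.83 and 2.53 CPM in SM2, and 2.42, 3.24 and 1.99 CPM in SM4. Its log2FCs were 0.47 (adjusted p = 0.0945) and 0.46 (adjusted p = 0.102), which miss the threshold. Without SM4 replicate 3 the latter passed (0.61, adjusted p = 0.0451). VIL1 overlaps exons of USP37 on the other strand, a gene at 30.2 ± 0.296 CPM in NC that was lower in SM2 (-0.29, adjusted p = 0.00606). CDH17 (ENSG00000079112.10, chromosome 8, 94127162 to 94217303) had 19, 9 and 18 counts in NC, 23, 27 and 31 in SM2, and 13, 44 and 17 in SM4. The log2FCs of 0.88 (95% interval -0.050 to 1.81) and 0.48 (-0.46 to 1.42) were not called (adjusted p = 0.177 and 0.522, edgeR). The sign in SM4 rested on replicate 2, since without it the value was -0.14. LGALS4 (ENSG00000171747.9, chromosome 19, 38801671 to 38812945) had 2, 8 and 4 counts in NC, 5, 0 and 5 in SM2, and 4, 5 and 10 in SM4, and did not pass the filter. LGALS4 was therefore not tested. The SM2 libraries lay above all NC libraries for VIL1 and CDH17, as 18% of all genes did, and neither difference passed the test.

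Because the 10 markers split across both tissues, further genes of each were read from lists. The shares over all genes apply beside each list count that follows. Against NC they were 12% higher and 10.3% lower in SM2, and 11% higher and 10.2% lower in SM4. Of 14 other ovarian genes, 5 passed the filter, and the list held both scarce and abundant factors. MECOM, a transcription factor, was at 35.7 ± 0.871 CPM in NC, per length above PAX8 (3.86 against 1.12 CPM per kilobase). WT1 had 0 to 10 counts and SOX17 0 to 10 counts in any library, and PGR, the progesterone receptor, had 0 counts in NC. Against NC, 3 of the 5 were higher and 1 lower in SM2 (MECOM, -0.24, named after its value was seen), and 2 were higher and 0 lower in SM4. FOXJ1, the factor of ciliated cells such as those of the fallopian tube, was at 2.55 ± 0.293 CPM in NC, 8.04 ± 0.348 in SM2 and 18.5 ± 0.511 in SM4. Its log2FCs of 1.65 and 2.84 (adjusted p = 4.02e-10 and 4.74e-14) exceeded those of every ovarian member in size, and against SM4 as the reference FOXJ1 had -2.84 in NC and -1.20 in SM2. KLK6, a kallikrein protease, was higher by 0.62 and 0.74 (adjusted p = 7.47e-08 and 4.31e-09). SLC34A2, a phosphate transporter, was higher in SM2 (0.76, adjusted p = 0.00113), with -0.084 in SM4 (adjusted p = 0.779) and a difference between the lines of -0.84 (adjusted p = 0.000773).

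Of 20 other gastrointestinal genes, 12 passed the filter. In SM4 against NC, 0 were higher and 8 lower, where 10.2% of all genes were lower, with a median log2FC of -0.49. In SM2 1 was higher and 4 lower, with a median of -0.15. The higher one was AGR2 (0.19), a call that was lost without NC replicate 1 (0.18), NC replicate 2 (0.18) or SM2 replicate 3 (0.10), and CEACAM6 (-0.37) was among the lower ones. Both genes were named after their values were seen. KRT20 was thus higher than in NC while most calls in this list were lower. In NC, CEACAM6 was at 948 ± 28.1 CPM (320.8 CPM per kilobase of all exons, above WFDC2 at 222.5) and AGR2 at 293 ± 8.74 CPM. By the longest transcript WFDC2 was at 363.2 CPM per kilobase in NC. Genes of the lists were not measured that way, so the order of CEACAM6 and WFDC2 holds for all exons only. The list summed to 1819 to 1929 CPM per library in NC, with 12 of 20 genes at a mean of at least 1 CPM. The 14 other ovarian genes summed to 75.58 to 78.15 CPM, with 5 at that level. CEACAM5, the carcinoembryonic antigen, was at 85.5 ± 3.37 CPM in NC, 47.5 ± 0.627 in SM2 and 30.1 ± 0.975 in SM4 (log2FCs -0.85 and -1.51, adjusted p = 1.59e-10 and 4.74e-14). Against SM4 as the reference, CEACAM5 was higher, at 1.51 in NC and 0.66 in SM2. MUC5AC, the gastric gel-forming mucin, was at 456 ± 58.5 CPM in NC and lower elsewhere, with log2FCs of -0.69 in SM2 and -0.71 in SM4 (adjusted p = 0.00158 and 0.00119). TFF1, a secreted gastric trefoil peptide, was lower in SM4 (-0.77, adjusted p = 5.66e-06) and had -0.049 in SM2 (adjusted p = 0.777). The intestinal factor CDX2 was present at 12.1 ± 0.603 CPM in NC, per length above PAX8 (3.43 against 1.12 CPM per kilobase). CDX2 was lower in SM4 (-0.45, adjusted p = 0.000558), with -0.14 in SM2 (adjusted p = 0.272). HNF4A, a factor of gut and liver epithelium, was at 6.64 ± 0.256 CPM in NC, per length below PAX8 (0.653 CPM per kilobase). HNF4A had -0.15 in SM2 and -0.28 in SM4 (adjusted p = 0.329 and 0.0572). In SM4 the HNF4A call was made with only the 6 libraries compared (adjusted p = 0.0473) and without SM4 replicate 2 (adjusted p = 0.0414).

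**Figure D4:**
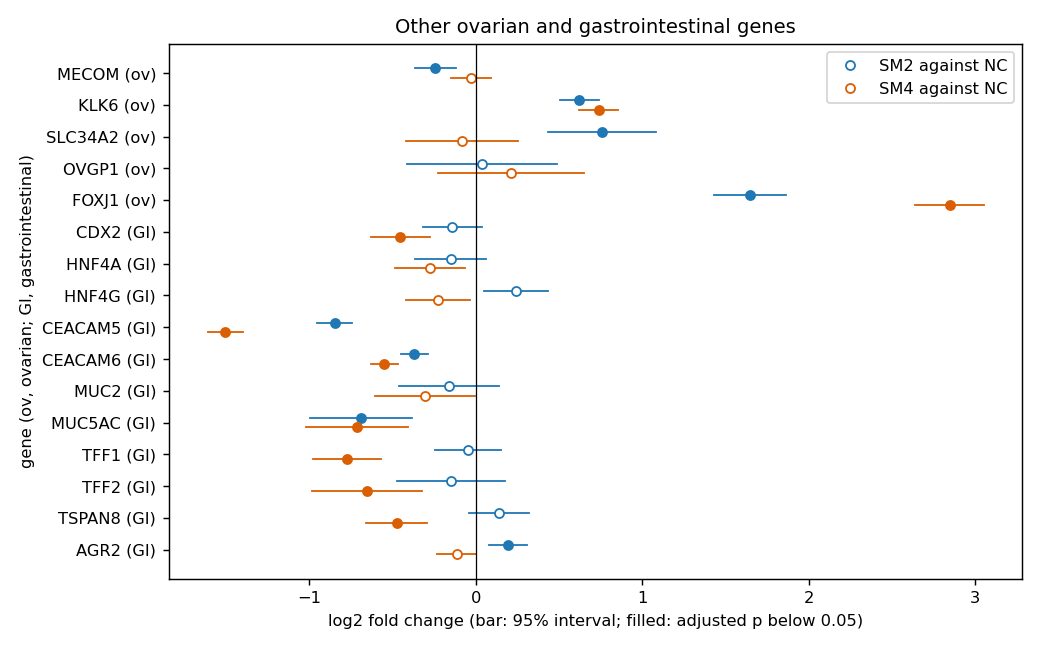
Log2 fold changes against NC of 16 tested genes of the other ovarian (ov) and gastrointestinal (GI) lists, with 95% intervals and filled points for an adjusted p below 0.05. FOXJ1 lies farthest right in both comparisons and CEACAM5 farthest left.

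The partners and relatives of the members were mixed. Of 10 brush border genes, which build the microvilli that villin bundles, 8 were tested, with 2 higher and 1 lower in SM2 and 2 higher and 0 lower in SM4. USH1C, the harmonin scaffold of microvillus tips, was at 4.65 ± 0.371 CPM in NC and higher in SM2 and SM4, at 10.9 ± 0.625 and 10.97 ± 0.689 CPM (log2FCs 1.22 and 1.23, adjusted p = 1.24e-08 and 7.86e-09). ESPN, an actin bundler, was higher in SM4 (0.29, adjusted p = 0.0027), and the bundler PLS1 was lower in SM2 (-0.22, adjusted p = 0.0015). Of 8 other membrane mucins, 6 were tested, and in each comparison with NC 2 were higher and 1 lower. MUC3A was higher (0.98 and 0.79, adjusted p = 5.13e-05 and 0.000464), MUC20 was higher (0.23 and 0.37, adjusted p = 0.014 and 0.000223) and MUC13 was lower (-0.33 and -0.66, adjusted p = 0.000798 and 2.29e-07). The MUC20 call in SM2 was lost without NC replicate 2 (0.19) or SM2 replicate 2 (0.20).

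All 5 other galectins were tested. In SM2 3 were higher, where 12% of all genes were. In SM4 2 were higher and 1 lower, where 11% and 10.2% of all genes were. LGALS1 turned between the lines, with 0.27 in SM2 and -0.27 in SM4 (adjusted p = 0.00248 and 0.00211). LGALS9 was higher in both (0.28 and 0.35, adjusted p = 0.0104 and 0.00201), the first of which was lost without NC replicate 2 (0.23), and LGALS8 was higher in SM4 (0.25, adjusted p = 0.0021). Among 4 other folate uptake genes, FOLR2 and FOLR3 were not tested, and the reduced folate carrier SLC19A1 was lower in SM4 (-0.21, adjusted p = 0.00478), where FOLR1 was higher.

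Of the mesothelial markers, which share MSLN with ovarian carcinoma, 4 of 5 were tested and 1 was called in each comparison with NC. UPK3B was higher by 0.44 and 0.50 (adjusted p = 8.22e-06 and 1.35e-06), with 25.7 CPM in NC, 34.97 CPM in SM2 and 36.4 CPM in SM4. The list summed to 126.3 to 141.6 CPM over all libraries with overlapping groups, and ITLN1 had 0 counts. Most of that sum was CALB2, named after its value was seen, at 103.6 CPM in NC, 95.7 in SM2 and 98.4 in SM4. CALB2 was not called against NC (log2FCs -0.11 and -0.075, adjusted p = 0.154 and 0.394, edgeR). The part of these markers in the MSLN result was not tested. LYZ, the 1 leukocyte marker that was tested and a product of some glandular epithelia too, was higher in SM2 (0.50, adjusted p = 1.25e-06) and lower in SM4 (-0.17, adjusted p = 0.0376), the latter being lost in 7 of the alternative fits. Of the epithelial markers, 3 were higher and 2 lower in SM2, and 3 higher and 1 lower in SM4, CDH1, the E-cadherin of cell junctions, being lower in both (-0.25 and -0.36, adjusted p = 0.000535 and 8.71e-06).

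For 8 members with a mean of at least 1 CPM, the protein-coding genes with the most similar pattern were found by Pearson's r of log2 CPM over the 9 libraries, which share the 3 groups, so that r mostly follows the group means. The closest to MSLN were LY6D (r = 0.997) and ARRDC4 (0.996), and those to WFDC2 were ATP6V0E2 (0.993) and PSCA (0.991). KRT20 was followed most closely by NANOS1 (0.992) and GPC1 (0.989), FOLR1 by PIGQ (0.990) and PARP10 (0.980), and MUC1 by DPP4 (0.976) and RHBDF2 (0.975). IGSF9B (0.962) was among the 2 closest to MUC16. For VIL1 (ELP4 at 0.930 and FPR1 at 0.912) and PAX8 (ARMC9 at 0.903 and GUCD1 at 0.902) the likeness was weaker.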

How the data were processed

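Deposited values were raw gene counts of 9 libraries, which the authors had not normalized. Per the methods of the study, reads were aligned to hg38 with hisat2 and counted with Subread, and the submitters' processing notes also name fastp and featureCounts. Versions, annotation and use of strand are not given in the sources used here, and labels and methods differ in library kit and read layout. Of 60649 identifiers, 60463 matched GENCODE v44 (GRCh38) without version suffix; 0 sample columns were left unused. Symbols, coordinates and exon lengths came from it.

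Genes were filtered with filterByExpr (19674 kept), scaled by TMM (factors 0.989 to 1.01) and tested with the quasi-likelihood test of edgeR 4.0.16 in R 4.3.3, with all 9 libraries in one model of group alone. P-values were Benjamini-Hochberg adjusted over 19674 genes, and adjusted p below 0.05 was called. Unless another tool is named, each adjusted p comes from this fit. Intervals (95%) use the SE and moderated degrees of freedom of that fit. CPM (TMM-scaled) and CPM per kilobase (union of exons) were derived from the counts and are given with the SD (n = 3). Totals were 44103272 to 63693728 counts per library, and intervals from counts cover no more than the spread between these libraries. log2FC is the log2 fold change. The procedure was tested on simulated data.

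Members, lists and rules were chosen with earlier results of these data known. Named genes are METTL3, the members, WT1, SOX17, CDX2 and HNF4A, up to 3 called genes per other list with the largest change (mean of at least 1 CPM), and the 2 genes most similar to each member; other list genes are named where a count called for it. Alternatives were DESeq2 1.42.0, 2 other normalizations, 2 other filters, only the 6 libraries compared, the replicate number as a block, leaving out each library, and a threshold of 0.01. Promoter windows came from RefSeq (GRCh38.p14). Protein sequences were not used here, and a few genes of the lists are not reported here.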

Additional observations from a re-analysis of the deposited data

Results flagged for a closer look

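The changes of 2 members against NC differed between SM2 and SM4 by the test of SM4 against SM2 (edgeR, Benjamini-Hochberg adjusted over all genes), in which NC drops out. MUC16 had a log2FC of -1.08 in SM4 against SM2 (adjusted p = 0.000135), with 3 of 3 SM4 libraries below every SM2 library. MSLN had 0.70 (adjusted p = 4.1e-08), with 3 of 3 above. MUC16 and MSLN thus differed in opposite directions.

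By the same test, 10 of the 23 tested genes named from the other lists differed between the lines, where 12.8% of all genes did. Most of these 23 were named for a large called change against NC, so their count is a description and no result about the lists. FOXJ1 was higher in SM4 by 1.20 on the log2 scale (adjusted p = 7.19e-09), ESPN by 0.28 (adjusted p = 0.00569) and LGALS8 by 0.21 (adjusted p = 0.0116). SLC34A2 was lower by -0.84 (adjusted p = 0.000773), TFF1 by -0.72 (adjusted p = 2.84e-05), LYZ by -0.67 (adjusted p = 4.83e-08), CEACAM5 by -0.66 (adjusted p = 1.89e-08) and LGALS1 by -0.54 (adjusted p = 2.27e-06). MUC13 had -0.33 (adjusted p = 0.00176) and CDX2 -0.31 (adjusted p = 0.0203). The CDX2 difference was lost without SM2 replicate 3 (-0.26), SM4 replicate 2 (-0.29) or SM4 replicate 3 (-0.28), and that of LGALS8 without SM4 replicate 2 (0.20).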

How the results depend on the processing

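The number of members called was 5 or 6 in SM2 against NC and 5 or 6 in SM4 against NC under every alternative. In SM4 against SM2 it was 2, apart from 3 with the replicate block, where FOLR1 passed (0.32, adjusted p = 0.0491), and 4 without SM2 replicate 3, so that leaving out 1 library gave 2 to 4. MUC16 kept its call in SM2 (1.26 to 1.67) and MSLN its call in SM2 (0.72 to 0.82) when any 1 library was left out. In these fits a group of 2 borrows its spread from the others. The replicate block changed no other call of a member; same-numbered libraries did not deviate together (correlations of -0.053 to 0.0453), so the numbers were not taken as pairs.

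Signs that turned were of values that were not called in the full fit. They were CDH17 in SM4 against NC without SM4 replicate 2 (-0.14, with up to 0.81 in the other fits that leave out 1 library), and in SM4 against SM2 WFDC2 without SM2 replicate 1 (-0.024) or SM4 replicate 2 (-0.0021), PAX8 without SM2 replicate 2 (0.029), KRT20 without SM4 replicate 3 (0.0043), and VIL1 without SM2 replicate 2 (0.064), SM4 replicate 1 (0.034) or SM4 replicate 3 (0.13). Among other genes they were SLC34A2 in SM4 against NC without NC replicate 3 (0.16) or SM4 replicate 1 (0.0058), ESPN in SM2 without NC replicate 2 (-0.014) or SM2 replicate 1 (-0.0023), and LGALS8 in SM2 without NC replicate 2 (-0.012). The opposite ends of these leave-one-out ranges were 0.069 for WFDC2, -0.11 for PAX8, -0.051 for KRT20, -0.22 for VIL1, -0.24 for SLC34A2, 0.022 for ESPN and 0.079 for LGALS8. PLS1 was called in SM4 with only the 6 libraries compared (-0.10, adjusted p = 0.0376). In the lists, brush border genes called in SM4 went from 2 to 4 with only the 6 libraries compared. Membrane mucins called in SM4 against SM2 went from 1 to 2 without a filter or without SM2 replicate 2 or SM4 replicate 2. Epithelial markers called in SM4 against SM2 went from 0 to 2 without SM2 replicate 3, and to 1 with DESeq2 or without SM4 replicate 2. Folate uptake genes called there went from 0 to 1 without SM4 replicate 2. Against NC, fibroblast markers went from 0 to 1 or 2 in several fits. Endothelial markers in SM4 against NC went from 0 to 1 without SM4 replicate 3. Over all genes, SM4 against SM2 called 2518, and 1574 without SM4 replicate 1. The cause of these changes was not tested. Depth limits CDH17 and LGALS4, whose highest library held 44 and 10 counts.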
